A study of Mus musculus with 2 samples.

Results

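The core circadian clock genes were examined in liver RNA of L-Lpcat3 KO mice and of their Lpcat3fl/fl controls on a western diet. The 10 genes were Arntl (Bmal1), Clock, Npas2, Per1, Per2, Per3, Cry1, Cry2, Dbp and Tef. They were read on the 25 probe sets that the platform annotation gives to 1 of these genes alone, by symbol or synonym. The array held 45101 probe sets and 18194 named genes. L-Lpcat3 KO denotes Lpcat3fl/fl Albumin-Cre mice, in which Cre driven by the albumin promoter deletes the floxed part of Lpcat3 in hepatocytes, while other liver cells keep the gene. The controls carried the same floxed alleles without Cre. All mice were 16-week-old males that were put on the western diet when 7 weeks old and kept on it for 9 weeks, lived under a 12-hr light/dark cycle and were fasted for 6 hr before harvest. None of the sources used here gives the hour of harvest or says whether both genotypes were harvested at the same hour. Many of these mRNAs vary over the day, so an effect of the hour cannot be told apart from one of genotype. Each genotype was measured on 1 Affymetrix genome-wide mouse array holding RNA pooled from 5 livers, so there is 1 sample per genotype. No test between genotypes was therefore possible, and the differences below describe these 2 pools.

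The mammalian clock is a transcriptional feedback loop. ARNTL pairs with CLOCK, or with its relative NPAS2, and the pair binds E-boxes in DNA and activates the Per and Cry genes. PER and CRY proteins accumulate, enter the nucleus and repress the pair, which closes the loop, and the nuclear receptors REV-ERB and ROR set the rhythm of Arntl from a second loop. DBP and TEF are PAR bZIP factors that are driven by the clock and act at D-boxes of rhythmic genes, many of them genes of liver metabolism. In mouse liver, Arntl and Npas2 mRNA peak at a time of day when Dbp mRNA is low, Cry1 mRNA peaks later than Per mRNA, and Clock mRNA varies little over the day.

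Values are MAS5 signal intensities, which compare the same probe set between the pools and not one probe set with another. Signals under the median of all values on both arrays together, 86.6, were set to that floor, and the log2 ratio was then computed with L-Lpcat3 KO as numerator and control as denominator. Of the 25 probe sets, 21 were at or above the floor in 1 pool or both, and these are called measured; 3 of the 21 had 1 side below it, so their ratio is a lower bound on the size of the difference. Of the 10 genes, 9 were measured, and Npas2 was below the floor in both pools. Each gene was represented by its measured probe set of highest mean log2 signal. As a yardstick of measurement spread, ratios of different probe sets for the same gene had a pooled SD of 0.31 on the log2 scale (5228 genes). It leaves out the spread between mice. The number of arrays limits the precision of every value.

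Stretches of promoter that hold the motifs of this loop are shown for the genes whose ratios are described below, to place each gene in the feedback loop. They are RefSeq windows of build GRCm38.p6, from 250 bases before to 50 bases after an annotated start, and are written 5′ to 3′ on the strand of the gene. Capitals mark the motifs. The motifs searched on both strands were the E-box (CACGTG), the E-prime box (CACGTT, which reads AACGTG on the other strand), the D-box (TTATGTAA or TTACGTAA), the ROR response element (RORE, the site of REV-ERB and ROR) and the cAMP response element (TGACGTCA). The E-box and the cAMP response element read the same on both strands and were counted once, and no E-box can be an E-prime box, since they differ in the last base. Windows were found for 9 of the 10 genes, 14 windows in all, and Per2 had none.
Cry1, E-prime box and E-box, chr10:85185089-85185153, minus strand: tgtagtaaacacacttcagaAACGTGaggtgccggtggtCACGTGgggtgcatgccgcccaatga
Per1, E-box, chr11:69098763-69098808, plus strand: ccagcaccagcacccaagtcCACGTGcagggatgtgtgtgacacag
Tef, E-box, chr15:81802526-81802571, plus strand: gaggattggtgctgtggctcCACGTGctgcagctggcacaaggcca
Per3, D-boxes, chr4:151044796-151044890, minus strand: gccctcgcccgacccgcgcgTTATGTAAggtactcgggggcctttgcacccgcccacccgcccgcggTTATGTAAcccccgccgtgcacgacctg
Cry2, E-prime box, chr2:92434210-92434255, minus strand: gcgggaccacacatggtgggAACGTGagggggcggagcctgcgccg
Arntl, ROR response element, chr7:113207528-113207557, plus strand: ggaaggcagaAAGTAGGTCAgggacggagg

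An E-box was present in 4 of the 14 windows, from 3 of the 9 genes, against 7.15% of all 32851 promoter windows. It starts 60 bases before the start of Cry1, 166 bases before that of Per1 and 127 and 138 bases before the 2 annotated starts of Tef. The E-prime box was found in Cry1 and Cry2 (4.68% of all windows), the D-box in Per3 only, where it occurs at 205 and 158 bases before the start (1.06% of all windows), and the ROR response element in Arntl only, 27 bases after an annotated start (0.435% of all windows). No member window held the cAMP response element, which 1.79% of all windows held. The windows of Clock, Npas2 and Dbp held none of these letters. A match of letters is a description of the window and not a measured binding site.

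Most core clock genes had a lower signal in the L-Lpcat3 KO pool, by small amounts. Of the 9 measured genes, 8 had a log2 ratio below 0 and 1 above, with a median of -0.30, whereas the median over all 12321 measured genes was 0.01 and 48.7% of them lay below 0. No core clock gene differed by 2-fold in either direction, a difference that 0.722% of all measured genes reached downwards and 2.74% upwards. At 1.5-fold, 2 of the 9 were lower, Cry1 and Arntl, against 3.86% of all genes, and none was higher, against 9.15%. Arntl is in these counts by its stronger probe set only; its other probe set lies above 0, and with Arntl taken from that one 7 of the 9 genes were below 0 and 1, Cry1, was at least 1.5-fold lower. A ratio lower than -0.31, the yardstick above, was found in 4 of the 9 genes (Arntl, Cry1, Tef and Per3), or 3 of 9 with the other Arntl probe set, and in 13.8% of all genes. The other 5 genes lay within that spread of 0.

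**Figure D1:**
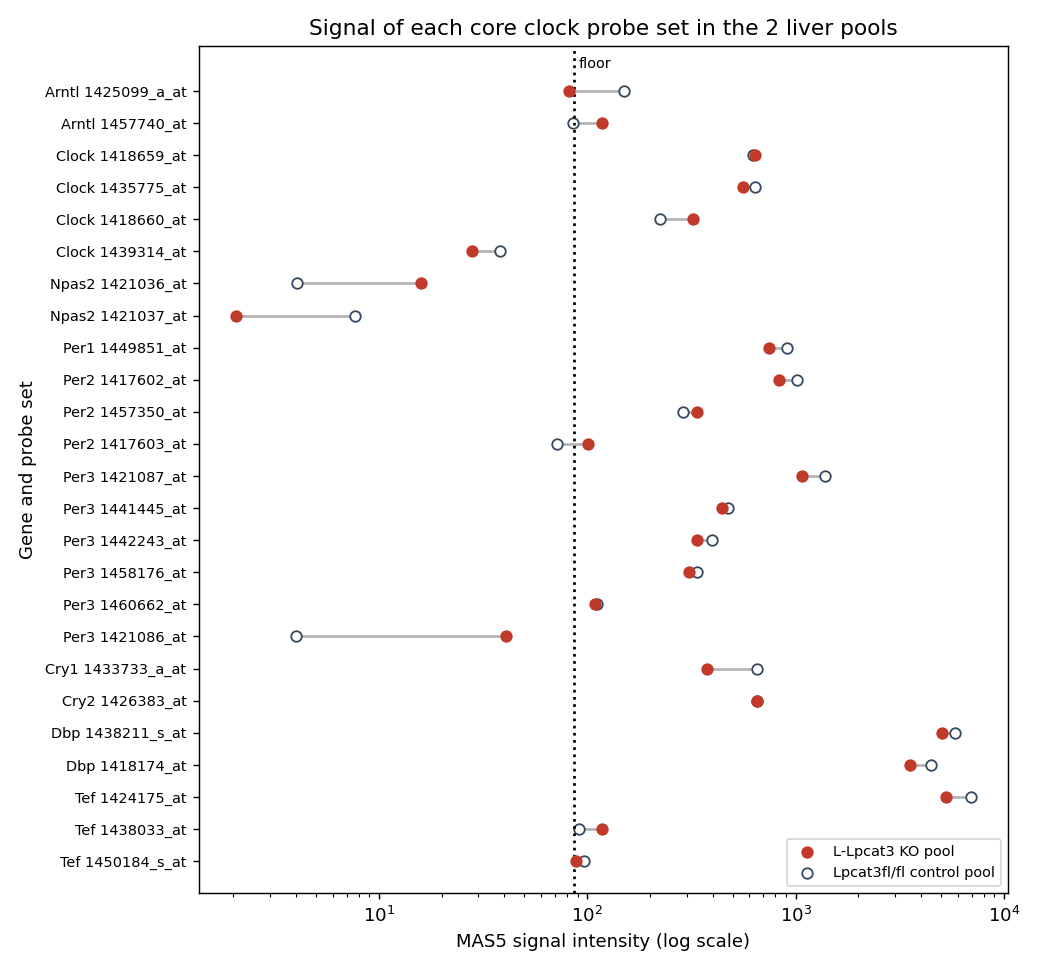
Signal of each of the 25 probe sets (rows, grouped by gene) on a log scale of MAS5 signal intensity, with filled points for the L-Lpcat3 KO pool, open points for the control pool and the floor of 86.6 as a dotted line; each point is 1 array. The points of Cry1 lie farthest apart among the probe sets above the floor in both pools (377 in L-Lpcat3 KO and 654 in control), and both Npas2 probe sets lie left of the floor.

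Among the repressors, Cry1 showed the largest difference. Cry1 encodes a repressor of the cryptochrome family that blocks the CLOCK-ARNTL pair. Its single probe set had a signal of 377 in the L-Lpcat3 KO pool and 654 in the control pool, a log2 ratio of -0.79, or 57.7% of control. This is past 1.5-fold and short of 2-fold, and no further probe set of Cry1 was available to check it. Cry2, the paralog of Cry1 with the same repressive role, had a signal of 650 in L-Lpcat3 KO and 653 in control, a log2 ratio of -0.01. The CRY pair thus gave different ratios on 1 probe set each, and their difference was not tested.

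The Per genes encode the partners of CRY in the repressive complex, and all had a lower signal on their strongest probe set in L-Lpcat3 KO liver. Per1, which also responds acutely to hormonal and stress signals, had a signal of 743 in L-Lpcat3 KO and 906 in control, a log2 ratio of -0.29 on its only probe set. Per2 had 828 in L-Lpcat3 KO and 1020 in control on its strongest probe set, a log2 ratio of -0.30. Per3 had 1072 in L-Lpcat3 KO and 1388 in control, a log2 ratio of -0.37. The 3 differences are alike in size, and each is near that yardstick of 0.31.

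The further probe sets of Per2 and Per3 did not behave alike. For Per3, all 5 measured probe sets had a lower signal in L-Lpcat3 KO, with log2 ratios from -0.37 to -0.03. The other 4 had signals of 442, 336, 306 and 109 in L-Lpcat3 KO, against 472, 397, 337 and 111 in control. The sixth Per3 probe set was below the floor in both pools, at 40.9 in L-Lpcat3 KO and 4.01 in control. For Per2, the second probe set had 337 in L-Lpcat3 KO and 290 in control (log2 ratio 0.22), and the third had 101 in L-Lpcat3 KO and 71.9 in control, a difference of at least 0.22 on the log2 scale because the control side was below the floor. Per2 therefore had 1 probe set below 0 and 2 above 0, and its mean over probe sets was 0.05. The median over the 5 repressor genes was -0.30, and all 5 were below 0, with Cry2 at -0.01.

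**Figure D2:**
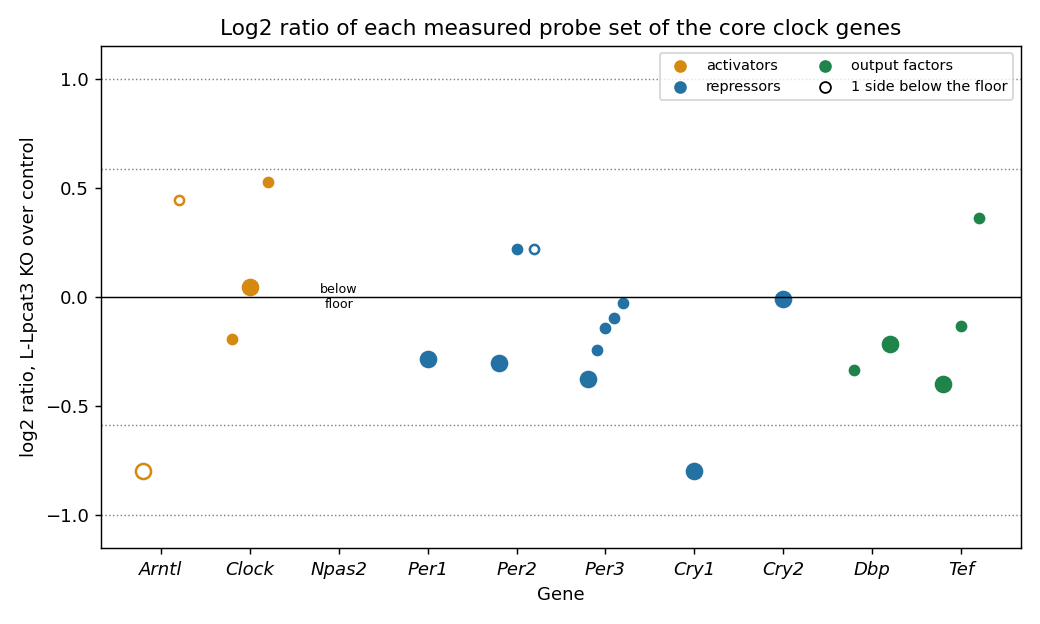
L-Lpcat3 KO over control, as log2 ratio, for each of the 21 measured probe sets, by gene (x axis) and coloured by role; large points represent the gene, open points have 1 side below the floor, and dotted lines mark 1.5-fold and 2-fold. All points of Per1, Per3, Cry1, Cry2 and Dbp lie below 0, those of Arntl, Clock, Per2 and Tef fall on both sides, and none passes 2-fold.

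The output factors were lower in L-Lpcat3 KO liver on their strongest probe sets. Dbp is among the most strongly rhythmic mRNAs of mouse liver and is a direct target of CLOCK and ARNTL. Its probe sets had signals of 5040 and 3531 in L-Lpcat3 KO, against 5850 and 4453 in control. Both were lower in L-Lpcat3 KO, with log2 ratios of -0.21 and -0.33. Tef, which encodes a PAR bZIP factor with a closely related DNA-binding domain, had a signal of 5263 in L-Lpcat3 KO and 6943 in control on its strongest probe set, a log2 ratio of -0.40. The other Tef probe sets were close to the floor, at 118 in L-Lpcat3 KO and 91.6 in control (log2 ratio 0.36) and at 88.4 in L-Lpcat3 KO and 96.9 in control (-0.13). The mean over the Tef probe sets was -0.06, so its difference rests on the probe set of high signal. Under quantile normalization and loess, Tef and Dbp stayed below 0.

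The activators gave no common direction. Clock, the histone acetyltransferase partner of ARNTL, had signals of 641, 562 and 322 in L-Lpcat3 KO, against 621, 641 and 224 in control. These are log2 ratios of 0.05, -0.19 and 0.52, so the probe sets fell on both sides of 0. The fourth Clock probe set was below the floor, at 28.0 in L-Lpcat3 KO and 38.3 in control. Arntl, the indispensable member of the activating pair, was near the floor on both of its probe sets. The first had 82.2 in L-Lpcat3 KO and 150 in control, which is at least 1.73-fold lower. The second had 118 in L-Lpcat3 KO and 85.2 in control, which is at least 1.36-fold higher. The Arntl probe sets pointed in opposite directions, so no direction is given for this gene, although its first probe set is counted among the 8 genes below 0. Npas2, which can stand in for CLOCK, had signals of 15.9 and 2.06 in L-Lpcat3 KO and of 4.05 and 7.65 in control, all below the floor, and no ratio is given for it.

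Taken by probe set, 15 of the 21 measured probe sets were below 0 and 6 above, with a median of -0.14, against 49.4% of all 24322 measured probe sets below 0 and a median of 0.005. None passed 2-fold (background 0.785% lower and 2.26% higher), and 2 were at least 1.5-fold lower (background 4.73%) and none at least 1.5-fold higher (background 8.09%). The probe sets of one gene share its RNA and are not independent of each other. Of the 6 genes with more than 1 measured probe set, Per3 and Dbp had all of them on the same side of 0. The split by side of 0 differed with signal. Of the 11 probe sets, from 8 genes, that reached the 75th percentile of all signals (405) on at least 1 array, 10 were below 0 with a median of -0.29. Among all 11833 probe sets above that level 54.1% were below 0, with a median of -0.02. The exception was the first Clock probe set.

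Genes of the wider loop were taken from a list of 13 partners, of which 11 were measured. Their median log2 ratio was 0.03, with 4 below 0 and 7 above. At 2-fold, 2 genes were higher (2.74% of all genes) and none was lower (0.722% of all genes). Nr1d1, which encodes the REV-ERB-alpha repressor of Arntl, had a signal of 230 in L-Lpcat3 KO and 95.4 in control (log2 ratio 1.27), near the floor in control. Its paralog Nr1d2 had 7003 in L-Lpcat3 KO and 6878 in control (0.03). Timeless, known in mammals mainly as a protein of the DNA replication fork, had 230 in L-Lpcat3 KO and 98.6 in control (1.22). The 2 genes past 2-fold thus both had control signals just above the floor, and with a floor at the 75th percentile, or with a pseudocount in place of the floor, neither was past 2-fold.

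The 4 partners that lay below 0 were Hlf, Ciart, Cipc and Bhlhe41. Hlf, the third PAR bZIP factor beside Dbp and Tef, had a signal of 827 in L-Lpcat3 KO and 1230 in control (log2 ratio -0.57), and -0.35 on its other probe set. Ciart, a circadian repressor also called Chrono, had 352 in L-Lpcat3 KO and 526 in control (-0.58). Cipc, an inhibitor of CLOCK, was at -0.17 with all 3 probe sets below 0, and Bhlhe41 was at least 1.10-fold lower. Bhlhe41 was below the floor in L-Lpcat3 KO, at 38.5 against 95.0 in control, so its place among these ratios is not known. Partner windows were searched for the same motifs. That of Nr1d1, which lay above 0, held an E-prime box. Bhlhe41 had an E-box in its window and Hlf a cAMP response element. The promoter window of Ciart held 3 E-boxes and is shown here because no member window held more than 1 of them.
Ciart, E-boxes, chr3:95882247-95882364, minus strand: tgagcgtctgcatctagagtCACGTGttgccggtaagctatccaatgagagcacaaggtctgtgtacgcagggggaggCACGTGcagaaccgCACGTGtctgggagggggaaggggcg

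Among the remaining partners, Nfil3, the repressor that competes with PAR bZIP factors for D-boxes, had a signal of 776 in L-Lpcat3 KO and 771 in control (log2 ratio 0.01). The activating nuclear receptor gene Rora was at 0.06, with its 7 probe sets from -0.24 to 0.44. The E-box repressor gene Bhlhe40 was at 0.21. Arntl2, the paralog of Arntl, was at least 1.12-fold higher, with its control signal below the floor, so the size of its difference is not known. Rorb was below the floor in both pools. All 3 PAR bZIP genes (Dbp, Tef and Hlf) thus lay below 0 on their strongest probe sets, while their antagonist Nfil3 was at 0.01.

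The enzymes that modify or degrade clock proteins showed no common difference. In a list of 17 kinases, phosphatases, ubiquitin ligases and related enzymes, 16 were measured, none reached 2-fold and the median was 0.03. Csnk1e, a casein kinase that phosphorylates PER proteins and marks them for degradation, had the highest ratio, with a signal of 338 in L-Lpcat3 KO and 199 in control (log2 ratio 0.77) and 0.57 on its other probe set. Its paralog Csnk1d, which acts on the same substrates, was at 0.06. The deacetylase gene Sirt1 (-0.52) and the AMP-activated kinase gene Prkaa1 (-0.48) had the lowest ratios, and Fbxw11, a ubiquitin ligase gene that acts on PER, was at 0.03.

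Most rhythmic liver genes downstream of the clock and of the PAR bZIP factors lay below 0. Of 25 listed genes 23 were measured, 16 lay below 0 (48.7% of all genes), and the median was -0.17. At 2-fold, 2 were lower (0.722% of all genes) and none was higher. Most genes of this list had high signals. Among all probe sets that reached the 75th percentile of signal, 54.1% lay below 0, with a median of -0.02. The hepatocyte markers had a median of -0.15, with 9 of 10 below 0, and their part in the ratios of this list was not tested. Cyp7a1, the rate-limiting enzyme of bile acid synthesis, had a signal of 3848 in L-Lpcat3 KO and 9080 in control (log2 ratio -1.24). The vasopressin receptor gene Avpr1a had 120 in L-Lpcat3 KO and 265 in control (-1.14). The uridine phosphorylase gene Upp2 had 7984 in L-Lpcat3 KO and 14368 in control (-0.85, and -1.33 to -0.54 over its 3 probe sets). With a floor at the 75th percentile, 1 gene of this list was at least 2-fold lower. The largest differences of the list were downwards. The ubiquitin-specific protease gene Usp2 (-0.43) and the deadenylase gene Noct (-0.53) were below 0 as well. Above 0 lay 7 genes of the list, and the highest of them was Insig2 at 0.47 (0.42 to 0.48 over its 3 probe sets). Alas1, the first enzyme of heme synthesis and a PAR bZIP target in mouse liver, was at 0.11.

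**Figure D3:**
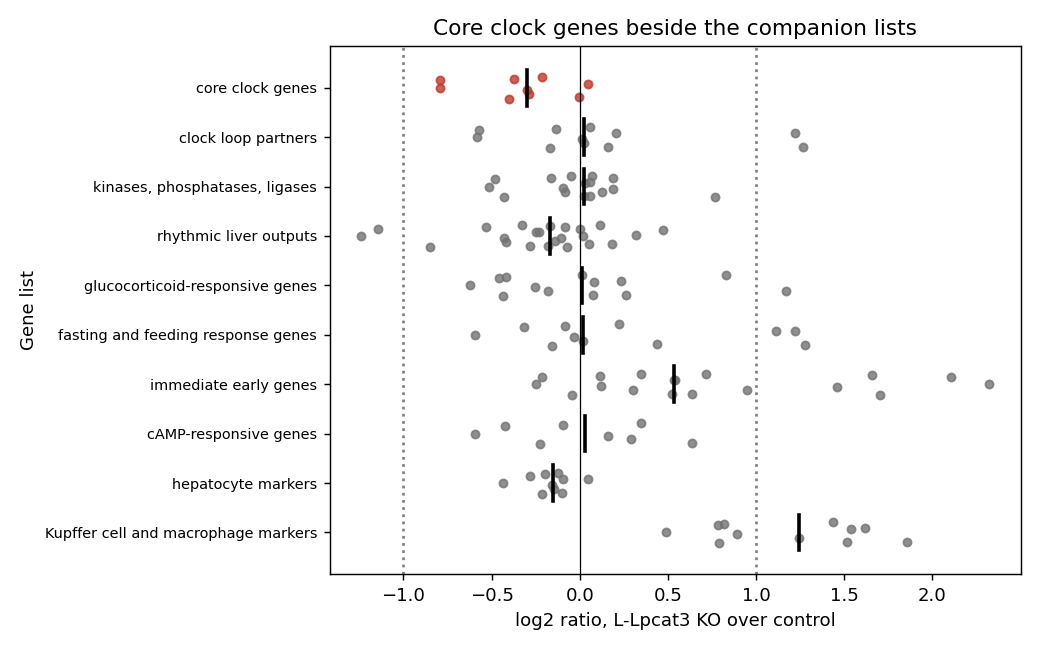
L-Lpcat3 KO over control as log2 ratio (x axis) for each measured gene of the core clock, of the companion lists and of hepatocyte and macrophage markers (rows); black bars are medians and dotted lines mark 2-fold. The core clock genes centre at -0.30 and the rhythmic liver outputs at -0.17, while the clock loop partners and the kinase list centre at 0.03 and the immediate early genes at 0.54.

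Signals that reset the liver clock were read from lists of their responsive genes, some of which are shared between lists. Of 13 glucocorticoid-responsive genes, 1 was at least 2-fold higher, against 2.74% of all genes, and the median was 0.01. The 1 gene was Cdkn1a (log2 ratio 1.17), which was short of 2-fold with a floor at the 75th percentile. Sgk1 was at 0.83, and Hsd11b1, which regenerates active glucocorticoid in liver, at -0.62, while Errfi1 was at -0.25. Of 11 measured genes of fasting and feeding, 3 were at least 2-fold higher (Pdk4, Fgf21 and Igfbp1), against 2.74% of all genes. With a floor at the 75th percentile, 2 of them were. The median of this list was 0.02, with Scd1 at -0.32. None of the 8 cAMP-responsive genes reached 2-fold; Nr4a1 was at 0.64, Crem at 0.35, Crtc2 at -0.42 and Ppargc1a at -0.59. Of 18 immediate early genes, 5 were at least 2-fold higher (Egr1, Jun, Fos, Myc and Klf6), against 2.74% of all genes, with Jund at 0.53 and a median of 0.54. With a floor at the 75th percentile, 2 genes of this list were at least 2-fold higher. The markers of macrophages, stellate cells and endothelial cells given below were higher in the same pool, and their part in the ratios of these genes was not tested. Per1, which shares acute induction with that group, was at -0.29.

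Facts of the 2 arrays stand beside these results. Lpcat3, the deleted gene, had a signal of 2198 in L-Lpcat3 KO and 5173 in control on its single probe set, and the sources used here do not say whether that probe set lies inside the floxed part. The trimmed mean of the signal was 500 on both arrays. Hepatocyte markers were slightly lower in L-Lpcat3 KO, with 9 of 10 measured below 0, a median log2 ratio of -0.15 and a summed signal of 281174 in L-Lpcat3 KO against 307997 in control. All 11 markers of Kupffer cells and macrophages were higher, 6 of them at least 2-fold, against 2.74% of all genes. Their summed signal was 26865 in L-Lpcat3 KO against 12129 in control. All 5 measured markers of B cells and plasma cells were at least 2-fold higher (summed signal 4537 in L-Lpcat3 KO and 898 in control). Adipoq and Retn among the adipocyte markers were also at least 2-fold higher. In control, 3 of these 5 B cell markers were below the floor, as were Adipoq and Retn, so their ratios are lower bounds. All 8 markers of stellate cells and fibroblasts were higher, 3 of them at least 2-fold (summed signal 22735 in L-Lpcat3 KO and 13158 in control), and 6 of 7 endothelial markers were higher, 3 of them at least 2-fold (4992 in L-Lpcat3 KO and 3651 in control). None of the listed markers was at 0; those below the floor in both pools were 5 T cell and NK cell markers, Krt7, Krt19 and Lep. Core clock genes are expressed in most cell types. Fewer cells of a type and less RNA per cell cannot be told apart in whole liver. The part of the cell mix in the clock gene ratios was not tested, nor was that of the hour of harvest.

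**Figure D4:**
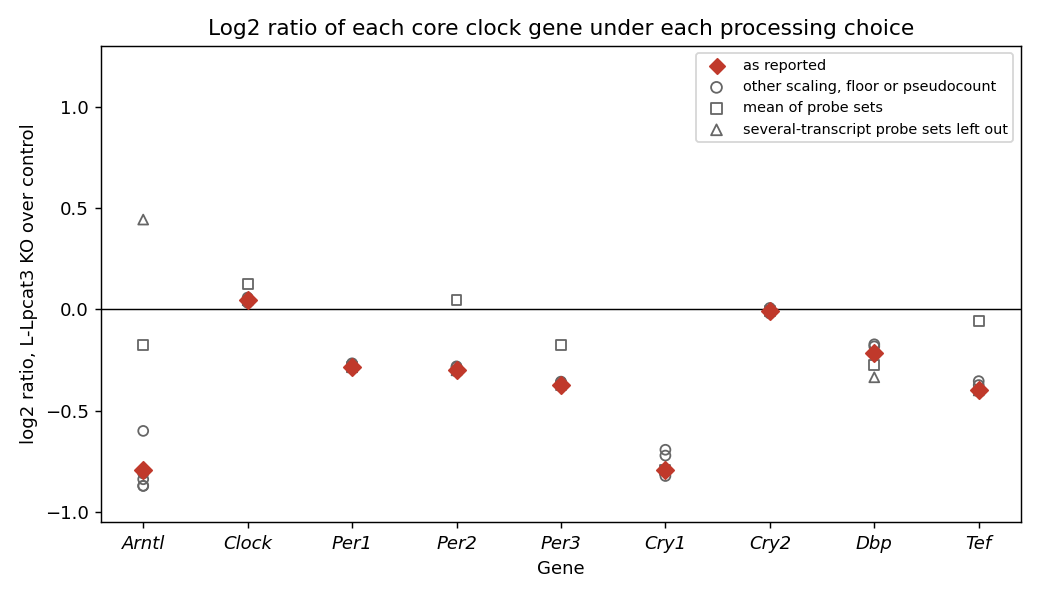
L-Lpcat3 KO over control, as log2 ratio, for each of the 9 measured core clock genes (x axis) as reported (filled diamonds) and under each alternative processing choice (open symbols). Per1, Per3, Cry1, Dbp and Tef stay below 0 throughout, Clock stays above 0, and Arntl runs from -0.87 to 0.44.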

How the data were processed

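Liver RNA pooled from 5 mice per genotype was hybridised to 1 array per genotype. Signals were made by the authors with MAS5 (the submitters' processing notes give no version) and, per the methods, GenespringGX; the intensity values as deposited are linear. With 2% of values trimmed at each end, their mean was 500 on both arrays, as global scaling gives; such scaling assumes that most transcripts are equal. Detection calls were not used here.

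Of 45101 probe sets, 34958 had 1 gene symbol in the platform annotation, 932 had several and were left out of genes, and 9211, among them 64 array controls, had none. Old symbols were replaced, by gene identifier, with those of RefSeq (GRCm38.p6). The floor and ratios were those described above; 24322 probe sets and 12321 genes were measured. With 1 pool per genotype no test was made, and genes were counted at 2-fold and 1.5-fold. The members and lists were chosen with earlier results of these data known. Named genes are all members and all loop partners. From each other list they are those past 2-fold, the 3 of largest ratio and the 1 of highest signal. Csnk1d, Usp2, Noct, Insig2 and the printed promoters were picked with their values known. Counting at 2-fold was tested on simulated data, with changes of 3-fold and 1.5-fold planted only in genes well above the floor. Counts at 1.5-fold and genes near the floor were not tested in this way. The simulated noise was set equal at all signals and was not fitted to these pools, so the error of the counts here stays unknown. Alternatives were median centring, quantile normalization, loess (span 0.3), floors at the 25th and 75th percentiles, values below the floor kept, a pseudocount of 50, averaging a gene's probe sets, omission of probe sets able to match more than 1 transcript, and thresholds of 1.5-fold and 3-fold. A planned comparison of protein sequences was not made. Python 3.11.15, numpy 2.4.6, pandas 2.3.3, statsmodels 0.14.6 and matplotlib 3.10.9 were used.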

Additional observations from a re-analysis of the deposited data

How the results depend on the processing

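The median log2 ratio of the core clock genes lay between -0.31 and -0.18 under all 9 alternatives of scaling, floor, pseudocount and probe set choice, against -0.30 as reported; the value nearest 0 came from the mean of probe sets. The number of genes below 0 was 8 of 9 as reported and lay between 6 and 8. It was 6 of 8 when probe sets able to match more than 1 transcript were left out, which removes Cry1 and turns Arntl to 0.44. No core clock gene or probe set was past 2-fold in either direction under any of these alternatives, or at 3-fold; at 1.5-fold 2 genes and 2 probe sets were lower. The median of the activators, -0.37 over Arntl and Clock, was 0.0457 with a floor at the 75th percentile (Clock alone), 0.0423 with the pseudocount (Npas2 included), -0.0245 with the mean of probe sets and 0.24 without those probe sets. Of the single genes, Arntl, Per2 (0.05 with the mean of probe sets) and Cry2 (0.01 with loess) changed sign under 1 alternative each. In the companion lists, 18 of 217 values, all of them counts past a threshold, moved beyond the limits used (1.5 times for counts, 0.31 for medians). The list medians moved by less than 0.31, but those near 0 carry no direction: 4 values, from the kinase, glucocorticoid and cAMP lists, changed sign, the fasting and feeding median reached 0.22 without probe sets able to match more than 1 transcript, and that of the immediate early genes was 0.33 with the floor at the 75th percentile. With the floor at the 75th percentile, 0 of the loop partners (also with the pseudocount), 0 of the glucocorticoid-responsive genes and 2 of the immediate early genes were at least 2-fold higher, and 1 of the rhythmic outputs was lower; with the floor at the 25th percentile or values below it kept, 1 loop partner was at least 2-fold lower. No paired analysis was possible because each genotype has 1 pool. Signals near the floor, those of Arntl, Npas2 and Nr1d1 in control above all, limit what these arrays can show.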
